A study of Mus musculus with 3 samples.

Results

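Oxidative phosphorylation genes of mouse hypothalamic cells are described here: 98 of the 32285 genes counted. They were chosen by symbol, as the nuclear genes whose symbols start as Nduf with a, b, c, s or v and a digit, Sdha to Sdhd, Uqcr, Cox4 to Cox8 or Atp5, and as the 13 protein genes of the mitochondrial genome. The 85 nuclear members comprise 38 of complex I, 4 of complex II, 8 of complex III, 18 of complex IV and 17 of complex V. The mitochondrial members comprise 7 of complex I, 1 of complex III, 3 of complex IV and 2 of complex V. Single cells from collagenase-digested hypothalamus of male mice, 8 weeks old at assignment, were sequenced with the 10x 3′ v3 kit. One library was made from each of 3 conditions: PF, control mice fed to match the intake of heated mice, HS, mice in the heat-exposed state, and QS, mice in recovery after the exposure. The labels name no genotype, strain, temperature or duration, and do not say how many mice went into a library. A room-temperature condition named in the design was not analysed here.

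The oxidative phosphorylation chain passes electrons from NADH (complex I) and succinate (complex II) through complexes III and IV to oxygen, and complex V uses the resulting proton gradient to make ATP. Complexes I, III, IV and V combine subunits made in mitochondria with subunits imported from the cytosol, so their supply draws on both genomes, whereas complex II is wholly nuclear. In brain, neurons and ependymal, glial and vascular cells differ in how far they rely on this chain and on glycolysis.

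The libraries held 11720 to 12836 barcodes and 93295920 to 103891747 unique molecular identifiers (UMIs), each UMI standing for 1 captured RNA molecule. After filters, 10782 to 11858 cells per library remained, with median depths of 6143 to 6298 UMIs; 5.46% to 6.32% of barcodes past the filters had been removed as doublets. Pairs of libraries shared 37 to 51 cell barcodes. Cells were put into a class by 8 marker genes per class, none of them a member, and 7 classes had at least 200 cells in every library: endothelial, microglia, astrocyte, ependymal, oligodendrocyte, vascular smooth muscle and pericyte. These names stand for cells like the named type by those markers. A class's own 8 markers summed to between 11568.6 and 41035.7 UMIs per 1000000 UMIs (CPM), and any other class's markers reached at most 4541.3 CPM in it, those of pericytes in vascular smooth muscle. Of cells that define the hypothalamus, 64 neurons and 170 tanycytes passed the gate in all libraries together.

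Values are UMIs summed over the cells of a class in 1 library, as CPM or as a percent of all UMIs of those cells. Because each condition had 1 library, no comparison between conditions has a replicate check, and no p-value is given. The 95% intervals given are exact and cover counting error only. Differences between libraries are ratios of CPM, written HS/PF, QS/PF and QS/HS; HS/PF and QS/PF share the PF library, and the other pairs share a library likewise. A gene was called higher or lower in a class when its ratio passed 1.2-fold and it had at least 30 UMIs in the 2 libraries together. All 13 mitochondrial and 83 of the 85 nuclear members reached 30 UMIs in some class of some library pair, and 80 nuclear members did so in every class. The members below that number in every class were Cox8b and Cox8c.

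A 3′ kit reads transcripts from their ends, so the last 60 bases of a few mitochondrial messages are shown first. They are those of the message with the lowest QS/PF ratios (mt-Nd3), of its upstream neighbour (mt-Co3) and of a message whose QS and HS levels lay close together (mt-Cytb). The sequences are those of GENCODE M21 transcripts on GRCm38, plus strand, at chrM:9331-9390 for mt-Co3, chrM:9747-9806 for mt-Nd3 and chrM:15229-15288 for mt-Cytb. Capitals mark the stop codon as encoded in the DNA.
mt-Co3: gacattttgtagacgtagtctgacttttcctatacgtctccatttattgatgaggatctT
mt-Nd3: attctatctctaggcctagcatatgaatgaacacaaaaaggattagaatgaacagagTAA
mt-Cytb: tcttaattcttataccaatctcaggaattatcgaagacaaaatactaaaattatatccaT
The DNA of mt-Nd3 encodes a whole stop codon, TAA, and those of mt-Co3 and mt-Cytb encode its first base alone, the rest being supplied by the poly(A) tail. On the plus strand, mt-Co3 (chrM:8607-9390) is followed by the glycine transfer RNA gene mt-Tg, mt-Nd3 (chrM:9459-9806), the arginine transfer RNA gene mt-Tr, mt-Nd4l (chrM:9877-10173) and mt-Nd4 (chrM:10167-11544). The annotated mt-Atp8 and mt-Atp6 share bases, as do mt-Nd4l and mt-Nd4, so the division of UMIs within each pair is uncertain. The gene mt-Nd6 lies on the other strand and runs into the end of mt-Nd5.

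For nuclear members, the stretches upstream of 2 genes are shown, those at the lowest and the highest end of the QS/HS ranking described below. Each is 100 bases ending just before the gene's annotated start, from RefSeq promoter windows on GRCm38.p6, plus strand: chr7:3617273-3617372 for Ndufa3 and chr10:128083173-128083272 for Atp5b. Capitals mark the GC box, GGGCGG on either strand, the letters bound by Sp1 family factors.
Ndufa3: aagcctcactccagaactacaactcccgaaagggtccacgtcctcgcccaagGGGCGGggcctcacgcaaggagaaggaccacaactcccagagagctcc
Atp5b: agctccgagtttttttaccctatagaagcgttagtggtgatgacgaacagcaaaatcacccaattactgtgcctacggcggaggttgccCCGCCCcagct
Both stretches hold a GC box, the gene lowest and the gene highest alike. RefSeq windows of 300 bases were found for 67 of the 85 nuclear members and were searched on both strands for 4 motifs, each counted on its own wherever it lay relative to the others. The GC box was in 27 of the 67 members (40.3%) and in 38.2% of 27025 genes. The core of nuclear respiratory factor 1, GCGCATGCG, was in 8 members (11.9%) and 1.95% of genes. An ETS core, CCGGAAG, as bound by GA-binding protein, was in 17 members (25.4%) and 9.93% of genes. A YY1 core, AAGATGGCG, was in 7 members (10.4%) and 1.64% of genes. A match is a description of letters, not a binding site.

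Mitochondrially encoded messages made up between 1.40% and 6.55% of a class's UMIs, and the classes stood in the same order in each library. Oligodendrocytes were highest, at 6.55% in PF, 5.89% in HS and 5.03% in QS. Microglia were lowest, at 1.96%, 1.68% and 1.40%. Astrocytes followed oligodendrocytes with 5.43%, 4.54% and 4.72%. Between these lay vascular smooth muscle (4.14% to 4.84%), ependymal cells (3.973% to 4.604%), pericytes (2.37% to 2.63%) and endothelial cells (1.94% to 2.35%). The ranges over libraries of neighbours in this order overlapped, except that ependymal cells lay wholly above pericytes and pericytes just above endothelial cells. Oligodendrocytes exceeded microglia 3.35-fold in PF, 3.51-fold in HS and 3.58-fold in QS. Classes also differed in median depth, from 3336.5 UMIs per cell in PF pericytes to 9649 in QS ependymal cells, and cells over 20% mitochondrial UMIs had been removed.

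Nuclear members ranked the classes differently. They made up 2.40% of UMIs of PF vascular smooth muscle, with 2.31% for HS and 2.41% for QS, and in microglia 0.721%, 0.668% and 0.603%. Oligodendrocytes (1.59% to 1.72%), pericytes (1.63% to 1.69%) and ependymal cells (1.53% to 1.60%) lay close together, endothelial cells at 1.31% to 1.37%, and astrocytes at 0.789% to 0.972%. The order was the same in each library apart from oligodendrocytes and pericytes, which changed places in QS. By the mean over libraries, vascular smooth muscle had the highest level of 59 of the 85 nuclear members and microglia the lowest of 66.

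**Figure D1:**
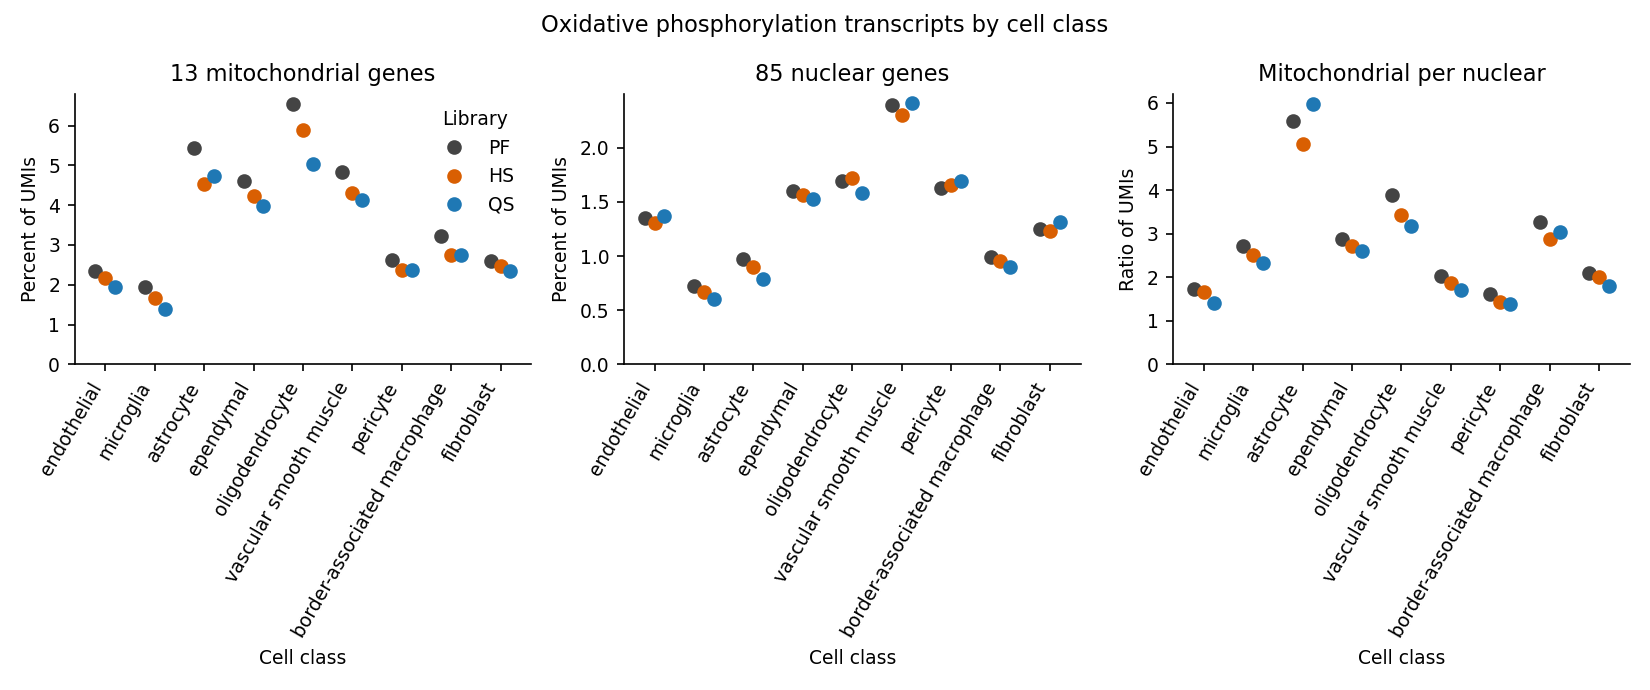
Percent of UMIs from the 13 mitochondrial genes (left), from the 85 nuclear genes (middle) and the ratio of the first to the second (right), by cell class; each point is 1 library and the axes start at 0. Oligodendrocytes lead for mitochondrial genes, vascular smooth muscle for nuclear genes and astrocytes for the ratio.

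The balance between the genomes separated the classes further. Astrocytes held 5.58 mitochondrial UMIs per nuclear member UMI in PF, 5.07 in HS and 5.99 in QS. Pericytes held 1.62, 1.44 and 1.40. Oligodendrocytes (3.17 to 3.88), ependymal cells (2.61 to 2.88), microglia (2.33 to 2.72), vascular smooth muscle (1.72 to 2.02) and endothelial cells (1.42 to 1.74) fell between, in this order in each library. Astrocytes thus combined the next highest mitochondrial percentage with the next to lowest nuclear one. In 6 of the 7 classes the ratio was highest in PF and lowest in QS. In astrocytes it was highest in QS. Of 16286.1 CPM of nuclear members in PF pericytes, Ndufa4l2 gave 1372 and Cox4i2 658, as described below. Whether pericytes would stay below endothelial cells without these genes was not tested.

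The nuclear subunits were also summed by complex. In vascular smooth muscle complex I summed to 8319.5 CPM in PF, 7884.2 in HS and 8174.8 in QS, complex V to 6486.4, 6274.8 and 6721.6, and complex IV to 6079.5, 5888.6 and 6074.0. In microglia complex I summed to 2309.9, 2139.6 and 1903.8 CPM. Complex II, 4 genes, summed to 555.5, 536.7 and 639.4 CPM in vascular smooth muscle and to 183.5, 176.4 and 184.3 in microglia. These sums count captured 3′ ends and are not divided by transcript length.

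Some subunits followed the order of the classes. Atp5b, the catalytic beta subunit of ATP synthase, stood at 845 CPM in PF, 750 in HS and 925 in QS in vascular smooth muscle and at 167, 158 and 160 in microglia. Cox6c, a small structural subunit of complex IV, stood at 837, 830 and 876 CPM against 139, 131 and 98.0. In both genes the libraries of vascular smooth muscle and microglia did not overlap.

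Other subunits kept less to that order. Ndufs1, the largest iron-sulphur subunit of complex I, was highest in astrocytes, at 93.8, 89.9 and 87.9 CPM in PF, HS and QS, with 73.6, 69.7 and 73.0 in vascular smooth muscle and 20.01, 20.7 and 21.5 in microglia. Cox5a, a nuclear-encoded subunit of complex IV, stood at 312, 281 and 317 CPM in endothelial cells and 343, 312 and 311 in vascular smooth muscle, so that these classes overlapped. Sdha, the flavoprotein that oxidises succinate, ranged from 51.7 to 53.7 CPM in microglia and from 103 to 181 CPM over astrocytes, ependymal cells, oligodendrocytes, vascular smooth muscle and pericytes. The core proteins of complex III ran from 57.2 to 176 CPM for Uqcrc1 and from 58.8 to 211 CPM for Uqcrc2 over the 7 classes, and its iron-sulphur protein Uqcrfs1 from 50.1 to 172 CPM. Ndufs7, which carries the last iron-sulphur cluster before quinone, ran from 60.2 to 328 CPM.

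Paralogous subunits marked the mural cells of vessels. Several subunits exist as a ubiquitous form and a tissue form encoded by another gene, and 2 tissue forms reached at least 4 times the level of the median class, and at least 50 CPM, in every library: Cox4i2 and Ndufa4l2. Cox4i2, the isoform of COX4 known from lung and from oxygen-sensing tissue, stood in pericytes at 658 CPM in PF, 745 in HS and 801 in QS. It made up 55.9% (PF), 58.1% (HS) and 61.1% (QS) of Cox4 UMIs there, beside Cox4i1 at 520, 538 and 510 CPM. In vascular smooth muscle Cox4i2 stood at 223, 251 and 263 CPM, or 21.7%, 25.9% and 24.7% of Cox4 UMIs. In the other 5 classes it stayed between 2.09 and 6.05 CPM.

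Ndufa4l2, a paralogue of Ndufa4 known as a target of hypoxia-inducible factor, outnumbered Ndufa4 in pericytes. Both are counted with complex I by symbol, although the Ndufa4 protein is found in complex IV. Ndufa4l2 stood there at 1372 CPM in PF, 1339 in HS and 1385 in QS, against 53.4, 54.7 and 46.8 for Ndufa4, and made up 96.3%, 96.1% and 96.7% of their joint UMIs. In vascular smooth muscle Ndufa4l2 made up 50.1%, 52.3% and 46.8%. In fibroblasts, a smaller class of 50 to 179 cells per library, it stood at 51.9, 46.3 and 60.6 CPM, and in the other 5 main classes at 1.41 to 5.53 CPM.

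Shares of cells with at least 1 UMI gave the same split. Of pericytes, 92.5% (95% Clopper-Pearson interval 89.6% to 94.8%) in PF, 96.4% in HS and 92.8% in QS held an Ndufa4l2 UMI. In microglia, a class whose background level serves as a reference, 3.23%, 1.35% and 1.16% did, at median depths of 7555.5, 7459 and 7978 UMIs against 3336.5, 3461 and 3442 in pericytes. For Cox4i2 the shares were 78.5%, 85.6% and 81.0% of pericytes and 2.62%, 2.49% and 2.27% of microglia. Markers of vascular smooth muscle summed to 3220.2, 3689.7 and 3286.1 CPM in pericytes and those of pericytes to 4406.3, 4541.3 and 4309.8 CPM in vascular smooth muscle; their part in the mural shares was not tested.

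**Figure D2:**
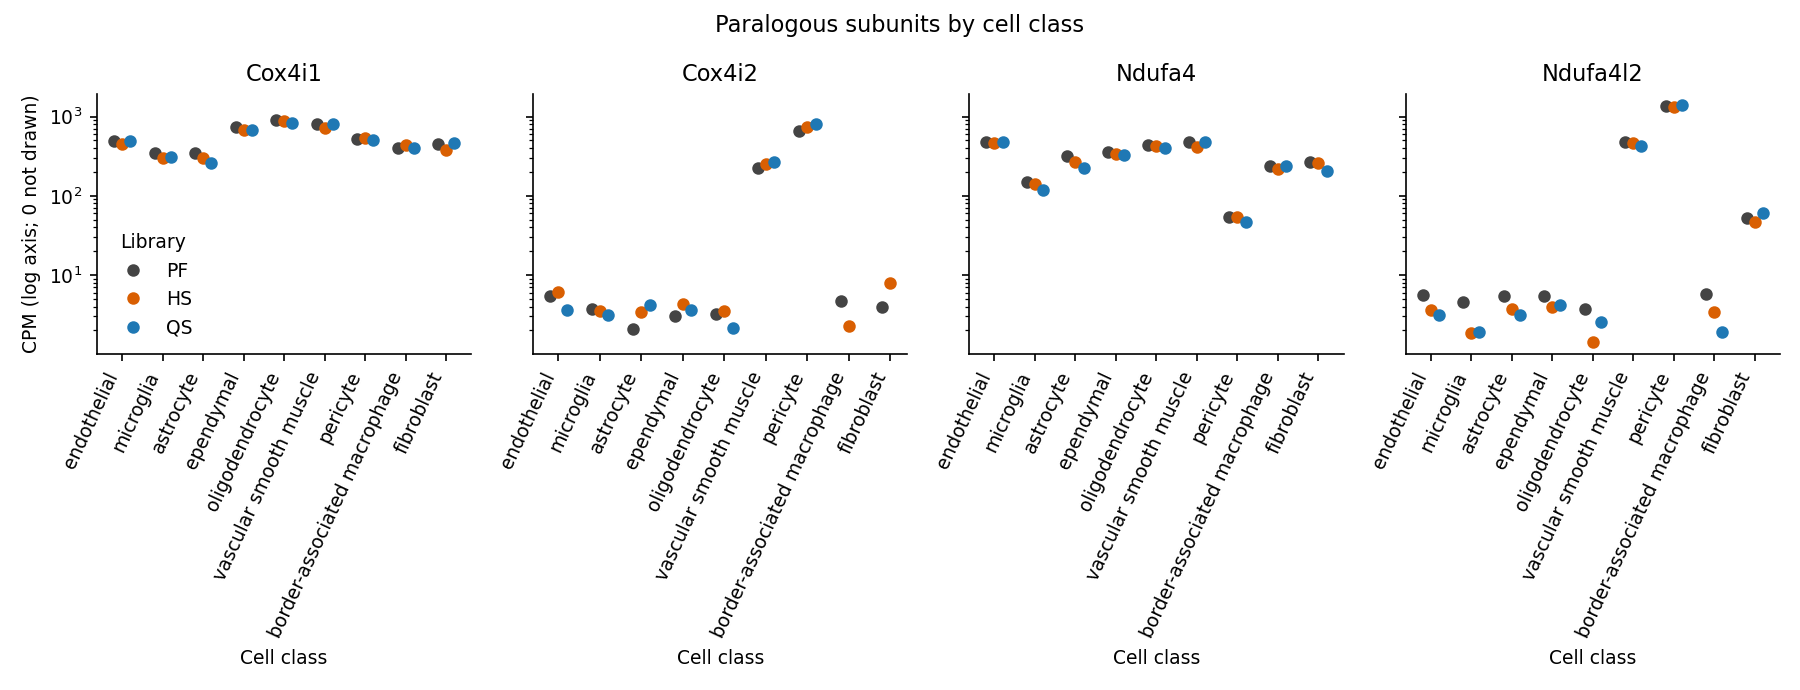
CPM of Cox4i1, Cox4i2, Ndufa4 and Ndufa4l2 by cell class on a log axis, 1 point per library; libraries at 0 are not drawn. Cox4i2 and Ndufa4l2 stand out in pericytes and vascular smooth muscle, and Ndufa4 is lowest in pericytes (46.8 to 54.7 CPM).

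The remaining tissue forms were low or spread over classes. Cox6a2, the heart and skeletal muscle form of COX6A, was highest in microglia, at 10.7, 10.98 and 10.7 CPM in PF, HS and QS. It made up 15.1%, 13.4% and 15.7% of Cox6a UMIs there. In astrocytes Cox6a2 stood at 3.14, 6.88 and 5.09 CPM, and in endothelial cells at 0.206 to 0.338 CPM. Cox6b2, the testis form of COX6B, reached 53.8, 82.1 and 45.5 CPM in fibroblasts and 27.7 to 31.9 CPM in ependymal cells. Cox7a1, the muscle form of COX7A, stayed at or below 9.67 CPM in the 7 classes. Cox8b and Cox8c had 0 to 3 UMIs per library in each of the 7 classes; in endothelial cells, 3 UMIs would be 0.124 to 0.145 CPM.

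Within the Cox7a family, the share of Cox7a2l, which joins complexes III and IV into supercomplexes, was highest in microglia, at 63.1% in PF, 63.1% in HS and 66.9% in QS. It was 22.0%, 22.7% and 28.7% in astrocytes and 24.5% to 25.8% in oligodendrocytes, where Cox7a2 led. The c-ring of ATP synthase is encoded by Atp5g1, Atp5g2 and Atp5g3, which give the same mature protein. Atp5g2 held 41.4% to 65.7% of their UMIs in each of the 7 classes; Atp5g3 held 30.7% to 31.4% in vascular smooth muscle and 12.9% to 13.2% in microglia. Cox8a, the ubiquitous COX8 form, stood at 1614, 1504 and 1611 CPM in vascular smooth muscle and at 349, 297 and 285 in microglia.

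HS against PF, the comparison of the heat-exposed state with intake-matched mice, showed small ratios for both genomes. Over the 13 mitochondrial members the median log2 ratio was below 0 in 7 of 7 classes, from -0.24 to -0.08, where the medians of all genes lay between -0.03 and 0.01. Of 91 pairs of a mitochondrial member and a class, 7 were lower and 6 higher, or 7.69% lower, against 14.8% lower and 13.9% higher over all genes. Limited to pairs at 50 CPM or more on both sides, 7 of 77 were lower and 1 higher, against 4.58% and 5.6% of all genes so limited. The lower pairs were mt-Nd1 in microglia and astrocytes, mt-Nd2 in astrocytes, mt-Nd4 in microglia, astrocytes and vascular smooth muscle, and mt-Cytb in astrocytes. The higher pairs lay in mt-Nd6, mt-Nd4l and mt-Atp8, whose levels over the 7 classes were 5.56 to 306 CPM in PF. The HS/PF ratio of summed mitochondrial messages was lowest in astrocytes, 0.836 (0.832 to 0.841), and highest in endothelial cells, 0.923 (0.920 to 0.927).

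Nuclear members in HS had class medians of -0.11 to 0.03 on the log2 scale. Of 565 pairs 27 were lower and 9 higher, and among pairs with at least 50 CPM in both libraries 16 of 502 were lower (3.19%) and 6 higher. Both lower shares were under those of all genes. Among nuclear members with at least 50 CPM in the median class, the set ranked here and below, the lowest median ratios over classes were those of Ndufv1, which binds NADH (-0.26), Ndufv3 (-0.25) and Ndufs8 (-0.22), all of complex I, and the highest those of Ndufb1-ps (0.24), Atp5k (0.18) and Cox7c (0.11). Ndufb1-ps is the mouse gene for the complex I subunit NDUFB1 and stood in pericytes at 106 CPM in PF, 151 in HS and 106 in QS.

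QS against PF, the comparison of recovery with intake-matched mice, differed from this in the mitochondrial members. Their median was below 0 in 7 of 7 classes, from -0.41 in microglia to -0.12 in pericytes, beside medians of all genes between -0.04 and -0.00. Of 91 pairs 46 were lower (50.5%) and 3 higher, against 18% lower and 13.3% higher over all genes. Limited to 50 CPM or more on both sides, 42 of 77 were lower (54.5%) and 1 higher, against 6.75% and 5.7%. In microglia all 13 members were lower, in oligodendrocytes 9, in endothelial and vascular smooth muscle cells 6 each, and in astrocytes, ependymal cells and pericytes 4 each. The summed level in QS was 0.717 (0.713 to 0.721) of PF in microglia, 0.768 in oligodendrocytes, and 0.824 to 0.899 in the other classes. The median mitochondrial share per cell, over all cells, was 2.97% in PF, 2.89% in HS and 2.66% in QS; its part in these ratios was not tested.

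Among the 13 messages, mt-Nd3 was lowest in QS. This small gene encodes a complex I subunit next to the quinone channel. In endothelial cells it stood at 328 CPM in PF, 333 in HS and 192 in QS. In oligodendrocytes the same values were 1009, 1022 and 584. In microglia it stood at 238, 232 and 124 CPM, in astrocytes at 512, 472 and 320, and in ependymal cells at 336, 341 and 225. PF and HS lay close together in each of these classes, and QS lay below both. In vascular smooth muscle the values were 579, 577 and 322 CPM and in pericytes 335, 361 and 241. The QS/PF ratio ran from 0.518 (0.488 to 0.550) in microglia to 0.719 (0.626 to 0.825) in pericytes, QS/HS from 0.532 to 0.678, and HS/PF from 0.921 to 1.08. It was lower past 1.2-fold in all 7 classes in both QS comparisons, the sole mitochondrial member of which this held.

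The share of mt-Nd3 among mitochondrial messages was lower in QS as well. As a percent of the 13 messages, mt-Nd3 had a class median of 1.22% in PF, 1.38% in HS and 0.880% in QS. The share of its downstream neighbour mt-Nd4l was 0.444%, 0.563% and 0.528%, and that of mt-Nd4 10.4%, 9.68% and 9.73%. Its upstream neighbour mt-Co3 had 17.0%, 17.0% and 14.6%. So the 2 messages next to each other on the plus strand, mt-Co3 and mt-Nd3, had lower shares in QS. The class medians of mt-Nd4l and mt-Nd4 stayed within the range of PF and HS. In astrocytes and ependymal cells, however, the share of mt-Nd4 was lowest in QS. Elsewhere on the genome, mt-Nd1 (5.65%, 5.25% and 5.22%) also had its lowest class median in QS, though in astrocytes its share was lowest in HS. The class median of mt-Co2 was lowest in QS too (13.2%, 13.3% and 12.9%). Within classes, however, the share of mt-Co2 was lowest in QS in pericytes alone and highest in QS in endothelial cells, microglia and ependymal cells.

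**Figure D3:**
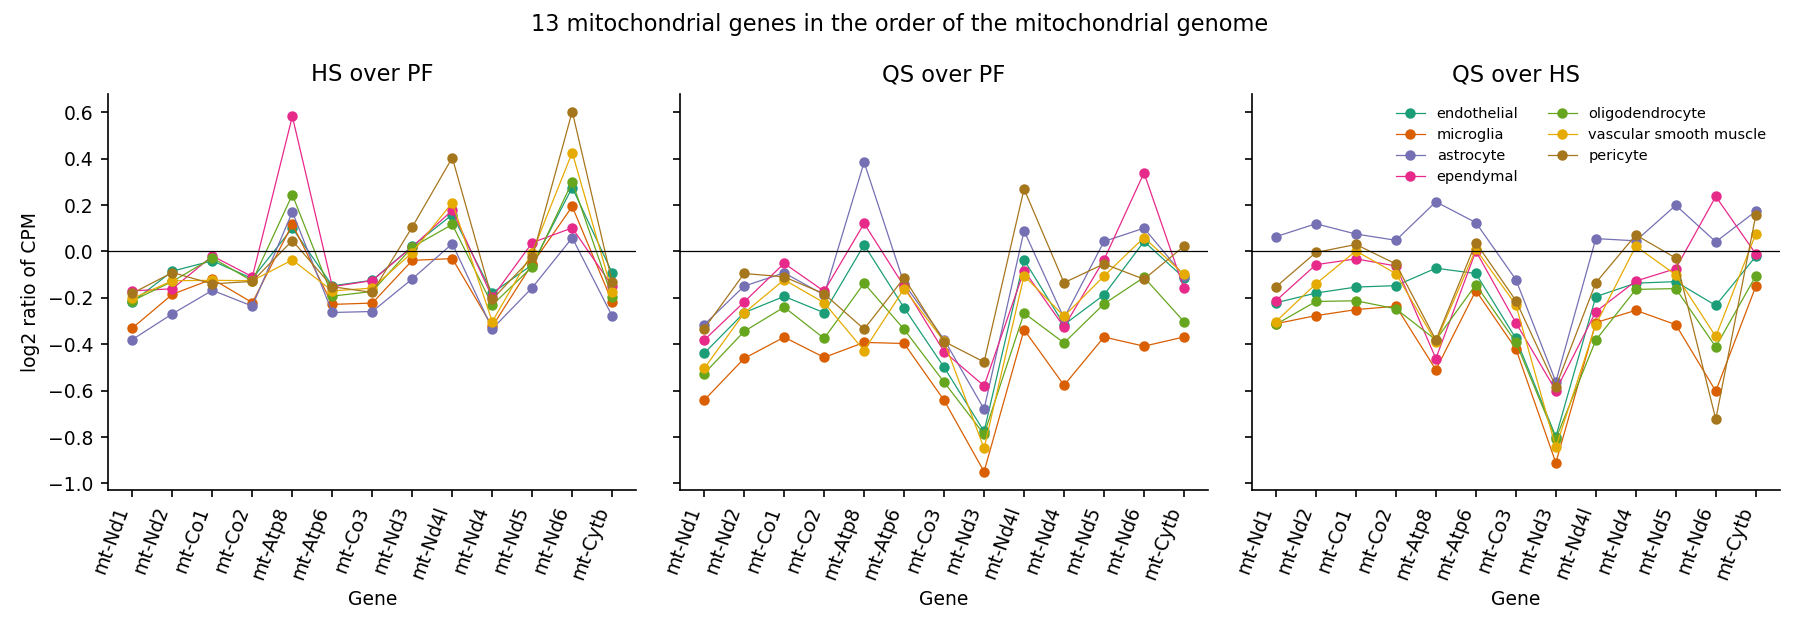
Log2 ratio of CPM for the 13 mitochondrial genes, in their order along the genome, for HS over PF, QS over PF and QS over HS; each line is 1 of 7 cell classes. In both QS panels mt-Nd3 is the low point of each line (QS/PF ratios 0.518 to 0.719) except pericytes in QS over HS, where mt-Nd6 is lower, while it lies near 0 in HS over PF.

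Also past 1.2-fold lower in each of the 7 classes for QS/PF were mt-Co3 and mt-Nd1. In oligodendrocytes mt-Co3, a core subunit of complex IV, stood at 11927.0 CPM in PF, 10583.4 in HS and 8072.2 in QS. Its QS/PF ratios ran from 0.641 to 0.769, its QS/HS ratios from 0.748 to 0.920. mt-Nd1, a membrane subunit of complex I, stood in microglia at 1405.3, 1118.1 and 901.2 CPM, with QS/PF ratios of 0.641 to 0.804 over classes. For mt-Nd1 PF was highest in each class, and HS lay between PF and QS except in astrocytes, where HS was lowest.

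The other messages had milder ratios. mt-Nd4, a complex I subunit, was lower in 6 of 7 classes (QS/PF 0.670 to 0.911), mt-Nd2 in 4, mt-Co2 and mt-Atp8 in 3 each, mt-Atp6, mt-Nd4l and mt-Cytb in 2 each, and mt-Co1, mt-Nd5 and mt-Nd6 in 1 each. mt-Cytb, the mitochondrial subunit of complex III, had QS/PF ratios of 0.775 in microglia to 1.02 in pericytes, and QS/HS ratios of 0.901 to 1.13. In pericytes it stood at 4546.6 CPM in PF, 4146.2 in HS and 4618.4 in QS. The median QS/PF ratio over classes was 0.919 for mt-Co1, 0.858 for mt-Co2, 0.895 for mt-Atp6, 0.945 for mt-Nd4l and 0.929 for mt-Nd5. The messages mt-Atp8 and mt-Nd6 had median class levels of 20.2 and 18.6 CPM, and their ratios spread most widely, from 0.744 to 1.31 and from 0.754 to 1.26.

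By whole class, nuclear members in QS were lower than in PF mainly in microglia and astrocytes. Over all classes 105 of 566 pairs were lower (18.5%, near the 18% of all genes) and 15 higher, and with at least 50 CPM in both libraries 77 of 501 were lower (15.4%, against 6.75% of all genes) and 10 higher. In microglia 43 of 81 members were lower and 0 higher, with a median log2 ratio of -0.27, and in astrocytes 40 of 82 lower and 3 higher, with -0.25. At 50 CPM these were 28 of 52 in microglia, against 5.66% of all such genes there, and 35 of 68 in astrocytes, against 9.59%. In the other 5 classes 3 to 5 members were lower, and medians ran from -0.09 in oligodendrocytes to 0.07 in pericytes. Summed, nuclear members in QS stood at 0.837 (0.829 to 0.845) of PF in microglia, at 0.811 (0.8002 to 0.822) in astrocytes and at 0.939 to 1.04 in the other 5 classes.

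Complexes I, III, IV and V were all lower in these 2 classes, with complex II near 0. The QS/PF medians in microglia were -0.27 for complex I, -0.25 for III, -0.28 for IV and -0.27 for V, and 0.03 for II. In astrocytes they were -0.27, -0.36, -0.25 and -0.38, and 0.01 for complex II. The annotated transcripts of complex II are long, 1142 to 3171 bases. Nuclear members over 1200 bases had QS/PF medians of -0.09 in microglia and -0.10 in astrocytes. The part of transcript length, described below, in the values of complex II was not tested. In astrocytes Cox5a stood at 212 CPM in PF, 182 in HS and 149 in QS. Atp5g1 stood at 97.2, 83.7 and 64.5. Sdha, by contrast, stood at 134, 132 and 130 CPM, and Sdhb at 78.9, 80.5 and 83.5. Each of the 4 genes kept 1 order over the libraries, with HS between PF and QS, and only the first 2 passed 1.2-fold in QS/PF.

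Other gene groups were lower beside them in these classes, as were markers of other classes, here and for some markers elsewhere. The 101 cytosolic ribosomal protein genes had QS/PF medians of -0.21 in microglia and -0.14 in astrocytes, and the 78 mitochondrial ribosomal protein genes of -0.19 and -0.25. Endothelial markers summed in microglia to 320 CPM in PF, 273 in HS and 193 in QS, those of vascular smooth muscle to 156, 116 and 74.3, against 21276.1 to 21901.9 CPM for microglia's own markers. In astrocytes endothelial markers summed to 350, 276 and 234 CPM and microglial markers to 339, 282 and 270. Markers of the remaining main classes had QS/PF ratios of 0.603 to 0.957 in microglia and 0.593 to 0.960 in astrocytes. Endothelial markers had QS/PF ratios of 0.549 in ependymal cells and 0.556 in oligodendrocytes as well, but of 0.900 in vascular smooth muscle and 1.04 in pericytes. Astrocyte markers had ratios of 1.07 in ependymal cells, 1.05 in oligodendrocytes and 1.46 in pericytes, and ependymal markers of 1.04 in endothelial cells. The part of such RNA in the ratios of members was not tested. With 5% of the library's average profile subtracted as free RNA, 50 members in microglia and 45 in astrocytes were lower in QS/PF. The share of all genes lower after that subtraction is not given, so these counts are not a test of free RNA.

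The makeup of the classes differed somewhat between libraries, so the ratios were taken within clusters. Clusters were made without the members. In the most populous microglial cluster, with 54.7%, 60.5% and 53.0% of microglia in PF, HS and QS, the nuclear QS/PF median was -0.24, beside -0.02 over all genes. In the next, with 26.7%, 26.1% and 36.1%, it was -0.26, beside -0.00. In a small microglial cluster of 74 to 129 cells per library it was -0.06, beside 0.00. Only 1860 genes were measured for QS/PF in that small cluster, against 11261 in the one before. The 2 astrocyte clusters, with 43.5%, 58.6% and 52.7% and 53.4%, 34.5% and 42.4% of astrocytes, had medians of -0.35 and -0.41, beside -0.05 and -0.07 over all genes. Mitochondrial members had QS/PF medians of -0.57 and -0.37 in the 2 larger microglial clusters, and of -0.10 and 0.06 in the astrocyte clusters. Outside these classes, an ependymal cluster of 71 to 120 cells per library had a nuclear QS/PF median of -0.34, beside 0.01 over all genes. There 41 of 68 nuclear members were lower (60.3%, against 29.7% of all genes). Its nuclear HS/PF median was -0.47, beside 0.02 over all genes. Few genes were measured in it, 3143 for QS/PF and 2465 for HS/PF. An ependymal cluster of 201 to 210 cells per library had 11133 and 11219. The other ependymal clusters had nuclear QS/PF medians of -0.08 and -0.05.

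**Figure D4:**
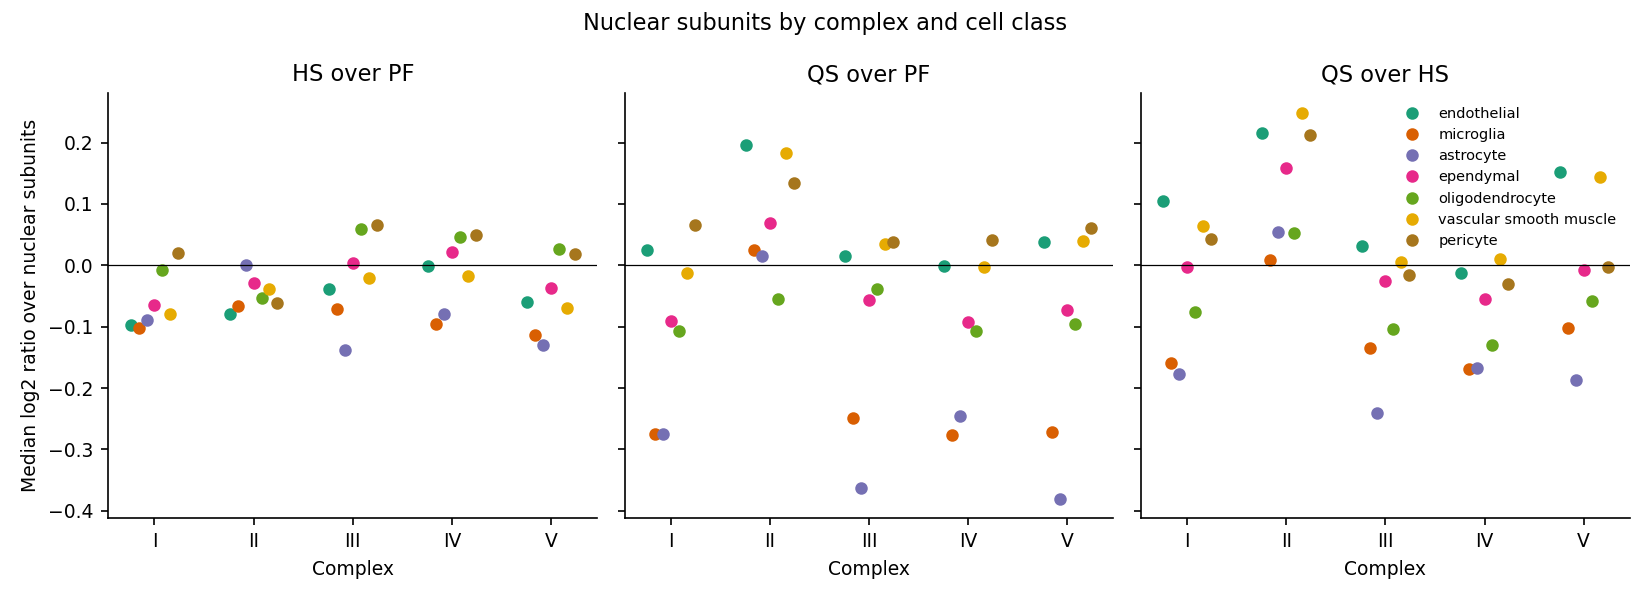
Median log2 ratio over the nuclear subunits of each complex, for HS over PF, QS over PF and QS over HS; each point is 1 of 7 cell classes. In QS over PF, microglia and astrocytes lie below the other classes for complexes I, III, IV and V and near 0 for complex II (0.03 and 0.01).

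QS against HS, the comparison of recovery with the heat-exposed state, had 28 of 91 mitochondrial pairs lower and 0 higher, or 30.8% lower against 19% of all genes lower and 15.3% higher. Limited to 50 CPM or more on both sides, 19 of 77 were lower (24.7%), against 9.46% lower and 7.28% higher over all genes. The mitochondrial medians ran from -0.31 in microglia to 0.06 in astrocytes, the sole class above 0. Nuclear pairs numbered 78 lower (13.8%, under the share of all genes) and 28 higher of 566, and 64 lower (12.9%, above the 9.46% of all genes) and 19 higher of 498 with at least 50 CPM. Endothelial cells had a nuclear median of 0.10 and microglia and astrocytes of -0.16 and -0.18.

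The sole nuclear member past 1.2-fold in all 7 classes in any comparison was Ndufa3, lower in QS/HS. It encodes a single-pass membrane subunit of complex I, lies at chr7:3617373-3620327 on the plus strand, and its upstream stretch is printed above. In endothelial cells it stood at 93.1 CPM in PF, 107 in HS and 80.6 in QS, in oligodendrocytes at 192, 223 and 162, and in ependymal cells at 108, 123 and 86.8. In microglia the values were 47.8, 47.7 and 33.5 CPM, in astrocytes 75.02, 75.3 and 49.5, in vascular smooth muscle 98.2, 101 and 70.2, and in pericytes 81.1, 86.6 and 65.4. QS was lowest in each class, and HS was highest in 6 of them, PF and HS differing by less in microglia, astrocytes and vascular smooth muscle than in endothelial, ependymal and oligodendrocyte cells. The QS/HS ratio ran from 0.657 (0.564 to 0.763) in astrocytes to 0.755 (0.571 to 0.995) in pericytes.

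Ndufb1-ps and Atp5md were next lowest in QS/HS in the ranked set, with medians over classes of -0.42 and -0.33. Atp5md encodes a small membrane subunit of ATP synthase and stood in microglia at 93.98 CPM in PF, 92.98 in HS and 65.4 in QS. Of the members at 50 CPM in the median class, the highest medians were those of Atp5b (0.20), Sdhc (0.18) and Sdhb (0.15). Atp5b in endothelial cells stood at 315, 296 and 339 CPM, with a QS/HS ratio of 1.15 (1.11 to 1.19), and it passed 1.2-fold in vascular smooth muscle, at 1.23 (1.17 to 1.30), and in pericytes, at 1.21 (1.09 to 1.34). Complex II as a whole had QS/HS medians above 0 in 7 of 7 classes, from 0.01 in microglia to 0.25 in vascular smooth muscle, with 4 of 28 pairs higher, near the 15.3% of all genes, and 0 lower. For QS/PF the lowest medians over classes in that set were those of Ndufv3, Ndufa3 and Ndufa1, each -0.32, and the highest those of Atp5a1 (0.13), Atp5f1 (0.12) and Ndufs4 (0.10).

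In QS comparisons the ratios of nuclear members went with the annotated length of their transcripts. Of the 75 nuclear members with at least 50 CPM in the median class, 27 had transcripts of up to 600 bases, and their median QS/HS log2 ratio was -0.13, with 24 of 27 below 0. The 15 members over 1200 bases had a median of 0.08, with 12 of 15 above 0, and of the 33 between, 19 lay below 0. Ndufa3 (515 bases) and Atp5md (362 bases) belong to the short group, Atp5b (1916 bases) and Sdhc (3171 bases) to the long one. For QS/PF the medians of the 3 groups were -0.11, -0.06 and 0.02, and for HS/PF -0.03, -0.07 and -0.03. As a description across genes, which share libraries and are not independent, Spearman's rho of ratio with length over the 51 to 79 members per class at 50 CPM or more on both sides was 0.45 to 0.61 for QS/HS, 0.40 to 0.61 for QS/PF and -0.27 to 0.18 for HS/PF. Over 3150 to 4142 other genes under the same limit it was -0.36 to 0.19, -0.23 to 0.30 and 0.07 to 0.34. Short transcripts outside the members were lower in QS as well. Other genes of up to 600 bases had medians below 0 in 7 of 7 classes, from -0.17 to -0.03 for QS/HS and from -0.20 to -0.02 for QS/PF, and members of that length had -0.26 to -0.01 and -0.41 to 0.01. The length used is that of the shortest best-supported GENCODE M21 transcript and not one measured in these cells.

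**Figure D5:**
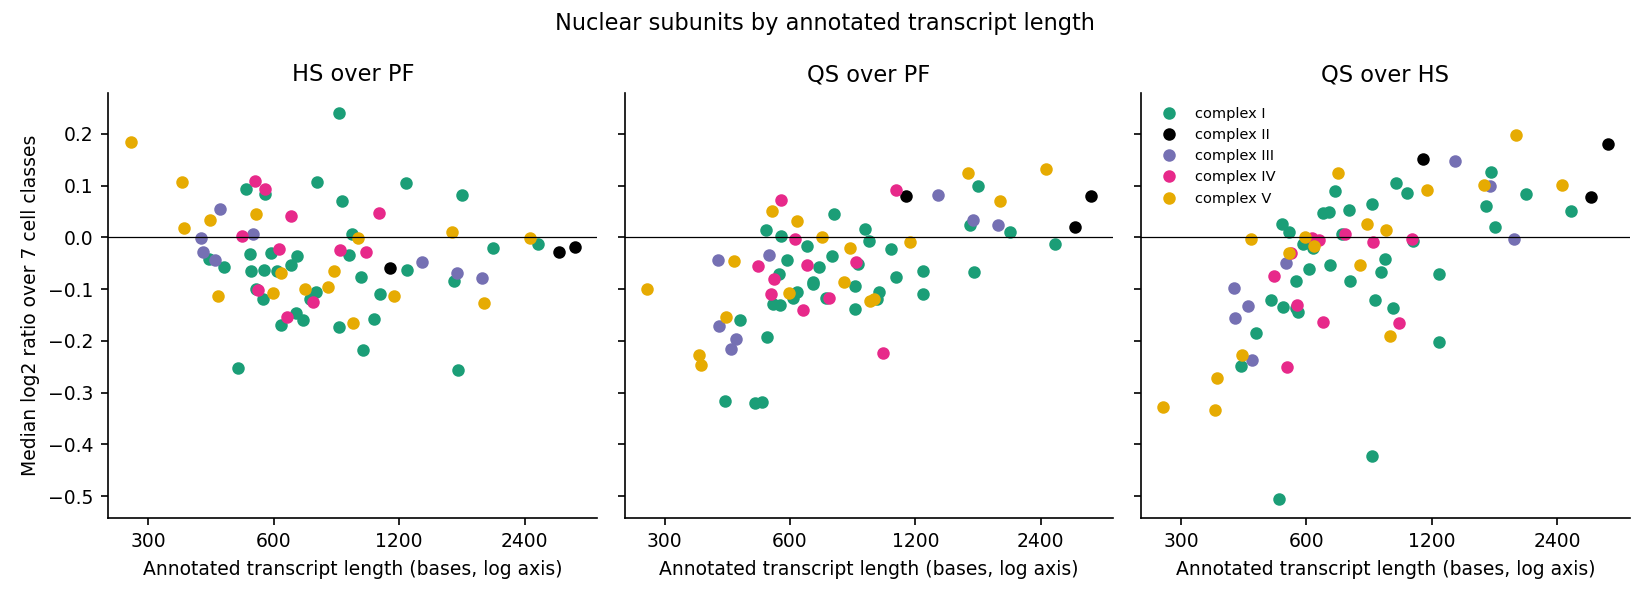
Median log2 ratio over 7 cell classes against annotated transcript length on a log axis, 1 point per nuclear member with at least 50 CPM in the median class, coloured by complex. In QS over HS, 24 of 27 members of up to 600 bases lie below 0 and 12 of 15 over 1200 bases lie above it; HS over PF shows no such slope.

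Other genes of the pathway were taken from lists written from general knowledge. For QS/PF, tricarboxylic acid cycle enzymes, which feed electrons to the chain, had 9 of 119 pairs lower and 4 higher, with class medians of -0.08 to 0.10. Assembly factors had 53 of 303 lower and 35 higher, genes of mitochondrial transcription and RNA 24 of 124 lower and 11 higher, and regulators of mitochondrial biogenesis 11 of 57 lower and 3 higher. Carriers and inhibitors had 14 of 126 lower and 3 higher, and mitochondrial ribosomal proteins 86 of 545 lower and 40 higher. The lower shares of these 6 lists, 7.56% to 19.4%, compare with 18% over all genes, both at the minimum of 30 UMIs. Shares limited to 50 CPM are not given for these lists. The lower medians of mitochondrial ribosomal proteins in microglia and astrocytes are given above. Past 1.5-fold, with 50 CPM asked of the higher library alone, were 4 genes, which are given as single values and not as a result on their lists. Mrps15, of the mitochondrial ribosome, stood in astrocytes at 52.0 CPM in PF, 50.1 in HS and 32.3 in QS, a QS/PF ratio of 0.620 (0.505 to 0.762). Mrps23, of the same ribosome, stood in vascular smooth muscle at 39.0, 39.6 and 60.5 CPM, a QS/PF ratio of 1.55 (1.23 to 1.96). In pericytes Surf1, an assembly factor of complex IV, had 60.3 CPM in HS where PF had 37.6, with a wide interval of the ratio, 1.13 to 2.29. Ndufaf2, one of complex I, stood there at 51.6 CPM in QS against 32.3 in PF, with an interval of 1.10 to 2.34.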

How the data were processed

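The authors deposited filtered count matrices of UMIs per gene and barcode from 10x 3′ v3 libraries; per the submitters' processing notes these came from Cell Ranger 5.0.0 and Seurat 3.1.2 on mm10, while the file headers name Cell Ranger 7.0.1. Members and lists were chosen with earlier results of these data known. Barcodes under 500 UMIs, under 200 genes or over 20% mitochondrial UMIs were left out, and doublets were removed per library with Scrublet in Scanpy 1.11.5 (expected rate 0.8% per 1000 barcodes; 784, 672 and 727 in PF, HS and QS). A cell joined a class if at least 3 of its 8 markers were detected, at least 1 more than for any related class, with unrelated classes at no more than 0.5 of that number; this placed 78.9%, 80.3% and 85.4% of cells. UMIs were summed per class and library and divided by all UMIs of those cells (CPM). Intervals are exact conditional binomial for ratios, exact Poisson for sums and Clopper-Pearson for shares, at 95% (SciPy 1.17.1). Clusters (Leiden, resolution 1, 30 components, 2000 variable genes) left the members out. The calling step was tested on simulated counts with counting error alone, at UMI totals above those of the smaller classes. Calls were scored there for genes at 50 CPM or more. That test does not cover differences between libraries or calls on genes with fewer counts. Gene models are GENCODE M21 (all 98 members and 32158 of 32285 identifiers matched).

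Named were all 13 mitochondrial members, core subunits (1 is not reported here), paralogues, the 3 highest and 3 lowest nuclear medians per comparison among members with at least 50 CPM in the median class, members past 1.2-fold in every class, those at 4 times the median class, and genes of other lists past 1.5-fold; other members shown were chosen after their values were seen. The 12 alternatives planned and 2 added cover filters, gate, clusters, denominators, centring, free RNA and UMI minimums.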

Additional observations from a re-analysis of the deposited data

How the results depend on the processing

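No paired analysis was possible because each condition has 1 library. Of 342 recomputed values over 14 alternatives, 319 moved by less than their spread or 1.5 times their count, 23 moved further and none changed direction. The cause was not tested unless the setting names it. With at most 10% mitochondrial UMIs per cell, or with the most populous cluster of each class alone, 4 mitochondrial pairs were lower in HS/PF, where the main count was 7; the first setting put the astrocyte ratio of mitochondrial to nuclear UMIs at 4.72 and the second at 5.01. As a mean of per-cell shares that ratio was 7.50 in astrocytes and 1.67 in pericytes, and the mitochondrial percentage of oligodendrocytes 7.03. In the most populous microglial cluster the mitochondrial percentage was 1.31 and the nuclear 0.596. Without mitochondrial, ribosomal protein and haemoglobin genes in the denominator, the nuclear percentage was 0.727 in microglia and 2.66 in vascular smooth muscle, and without mitochondrial genes alone 2.48 in the latter, as a smaller denominator must give. Among pericytes named by cluster, Cox4i2 held 55.2% and Ndufa4l2 93.3% of their families; with 5% free RNA subtracted Ndufa4l2 held 97.6%, and in the most populous cluster 97.0%. Over the alternatives the median log2 ratio of mt-Nd3 ran from -0.79 to -0.68 for QS/PF and from -0.81 to -0.71 for QS/HS, moving in 2 settings each (per-cell shares, and the most populous cluster). That of mt-Co3 for QS/PF ran from -0.46 to -0.37, moving with the 10% maximum, clusters named as a whole and per-cell shares. Counts of lower QS/PF pairs ran from 39 to 47 for mitochondrial members, from 95 to 123 for nuclear ones, from 32 to 51 in microglia and from 39 to 56 in astrocytes. The gate with at least 4 markers and the restriction to 1 cluster were chosen after seeing the data. Cells over 20% mitochondrial UMIs entered the setting without that maximum untested for doublets.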

Other observations

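Classes with under 50 cells in some library are given over all libraries together, with neutrophils also by library. Tanycytes (170 cells), the glia that line the floor of the third ventricle, gave 6.08% of their UMIs to mitochondrial members and 1.78% to nuclear ones, and neurons (64 cells) 2.71% and 1.82%. T or NK cells (126 cells) gave 2.14% and 1.39%, B cells (113 cells) 3.04% and 0.970%, and neutrophils (57 cells) 0.792% and 0.577%. The neutrophils came mostly from HS (34 cells, with 7 in PF and 16 in QS), too few to compare libraries. Their percentages by library, PF, HS and QS, were 0.681, 0.932 and 0.448 for mitochondrial members and 0.541, 0.563 and 0.631 for nuclear ones. Tanycytes had 3.41 mitochondrial UMIs per nuclear member UMI, against 1.49 in neurons.

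Cells outside any class and the barcodes removed for over 20% mitochondrial UMIs were not used in the comparisons. In the unclassed cells mt-Nd3 stood at 403 CPM in PF, 414 in HS and 254 in QS. In the removed barcodes, 191, 204 and 200 in PF, HS and QS, its share of mitochondrial UMIs was 1.14%, 1.14% and 0.779%, and that of mt-Co3 17.9%, 18.0% and 15.7%. Border-associated macrophages, with 67 to 106 cells per library, had an mt-Nd3 ratio of 0.740 (0.599 to 0.912) for QS/PF, and fibroblasts of 0.627 (0.464 to 0.833).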
